A study of Mus musculus with 4 samples.

Results

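The ectodysplasin pathway was represented by 5 genes, Eda, Eda2r, Edar, Edaradd and Traf6, taken as the rows of the deposited count table that carry these symbols, 5 of 25965 entries. The genes were selected on the counts of Smchd1-deleted and undeleted cells, which were already known, so the differences between those groups are a description and carry no p. Ectodysplasin, made by Eda, is a ligand of the tumour necrosis factor (TNF) family. It is known for the development of hair, teeth and sweat glands, where its A1 form binds the receptor Edar and its A2 form binds the receptor Eda2r, also called Xedar. The signal passes through the adaptor Edaradd, in the case of Edar, and through TRAF adaptors such as the ubiquitin ligase Traf6 to the transcription factor NF-kB. Human EDA2R is also known as a gene induced by p53. Eda and Eda2r are X-linked.

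RNA was sequenced from female mouse neural stem cells. The cells compared were Smchd1 del/del, set against Smchd1 del/fl cells, which have 1 allele deleted already and 1 conditional allele. Smchd1 is a chromatin protein needed for the silencing of the inactive X chromosome. Per the labels, both groups were of a mixed C57BL/6, 129 and Castaneus (Cast) background and came from embryos of stage E14.5 (embryonic day). The labels also give both groups the genotype Xist 129-KO/Xist WT-Cast, with the Xist deltaA allele on a maternal X of 129 origin. The Smchd1 del/del cells had received Cre from the retrovirus MSCV-Cre-puro, with puromycin from 24 hours after transduction and harvest after 7 days. The Smchd1 del/fl cells were the untransduced part of the same lines, so that the loss of Smchd1 and the effects of transduction and selection cannot be told apart. There were 4 libraries, 1 of each genotype for each of 2 numbers in the column names. These numbers were taken as those of 2 lines, called A and B.

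Libraries held between 29873400 and 34018500 counts. Smchd1 itself had 785 and 852 counts in Smchd1 del/del cells of lines A and B, against 2779 and 3461 in Smchd1 del/fl cells. The neural stem cell markers Nes, Sox2, Pax6, Vim, Fabp7 and Slc1a3 summed to 9459 and 8371 CPM (read counts scaled to the size of the library) in Smchd1 del/del cells and to 8773 and 8220 CPM in Smchd1 del/fl cells, with members differing in opposite directions. Slc1a3, a glutamate transporter also found in astrocytes, had 2405 and 2612 CPM in Smchd1 del/del cells and 1199 and 1383 CPM in Smchd1 del/fl cells and rose with line as a block (edgeR adjusted p = 0.0197 for a log2 of 0.96, SE 0.08), while Nes had a log2 of −0.48 (SE 0.09, edgeR adjusted p = 0.0536) and the other 4 did not pass. The 6 markers of epidermis and epithelium, the tissue type in which the pathway is best known, summed to 0.299 and 0.0313 CPM against 0.0673 and 0 CPM, with Krt14 and Krt15 at 0 in every library. The 4 astrocyte markers summed to 272 and 140 CPM in Smchd1 del/del cells and to 130 and 78.3 CPM in Smchd1 del/fl cells, with none at 0. All 4 rose in edgeR's quasi-likelihood test with line as a block, where 3.71% of all genes rose. Without the block edgeR called 0 of the 4 astrocyte markers. Their part in the results below was not tested, and in bulk RNA a change in the number of cells of a type and a change in the RNA of each cell cannot be told apart.

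The promoter windows of the 2 X-linked members are shown because these genes differed in opposite directions. They run from 250 bases before to 50 bases after the RefSeq start on GRCm38.p6, the assembly of mm10, and read 5′ to 3′ on the strand of the gene. Capitals mark the TATA box TATAAA, the CCAAT motif and the GC box GGGCGG, searched on both strands. The Eda2r window lies at chrX:97377160-97377459 on the minus strand and that of Eda at chrX:99975356-99975655 on the plus strand.
Eda2r: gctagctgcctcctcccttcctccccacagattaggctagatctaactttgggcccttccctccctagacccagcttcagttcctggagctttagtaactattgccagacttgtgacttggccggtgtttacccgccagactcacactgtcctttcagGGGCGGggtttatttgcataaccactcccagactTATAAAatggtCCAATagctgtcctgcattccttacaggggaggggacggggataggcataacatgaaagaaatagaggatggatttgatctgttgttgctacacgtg
Eda: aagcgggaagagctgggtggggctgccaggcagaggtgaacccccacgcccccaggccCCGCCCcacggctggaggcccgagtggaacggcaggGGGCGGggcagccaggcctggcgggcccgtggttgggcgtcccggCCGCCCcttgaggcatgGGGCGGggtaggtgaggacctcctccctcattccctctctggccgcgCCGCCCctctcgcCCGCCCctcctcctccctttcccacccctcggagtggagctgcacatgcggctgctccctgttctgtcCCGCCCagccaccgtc
The Eda2r window held 1 match each of the 3 motifs, with 5 CpG dinucleotides and 50.3% G and C. The Eda window held 7 GC boxes and no match of the others, with 22 CpG dinucleotides and 74.3% G and C. Of 32851 such windows, 13.6% held the TATA box, 37.4% the CCAAT motif and 35.7% the GC box, and the median CpG number was 7. These matches describe letters of the reference and not the binding of a factor, and the 129 and Cast bases may differ.

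Eda2r was the most abundant of the 5 genes in these cells, and Edar was close to absent. Divided by the length of its annotated exons, Eda2r had 51.6 ± 4.84 CPM per kb in Smchd1 del/del cells and 41.1 ± 0.332 CPM per kb in Smchd1 del/fl cells (SD, n = 2 each, as for the values that follow). Traf6 had 6.27 ± 0.504 CPM per kb in Smchd1 del/del cells and 6.73 ± 0.0226 in Smchd1 del/fl cells. Eda, the ligand, had 1.67 ± 0.892 CPM per kb in Smchd1 del/del cells and 4.1 ± 2.11 in Smchd1 del/fl cells. Edaradd had 0.128 ± 0.0348 CPM per kb in Smchd1 del/del cells and 0.103 ± 0.00996 in Smchd1 del/fl cells, and Edar had 0.118 ± 0.00375 against 0.0485 ± 0.023. The genes ranked alike in both groups. In Smchd1 del/del cells Edar, at 0.115 and 0.12 CPM per kb, lay inside the range of Edaradd, 0.103 to 0.152, and no other neighbours in the ranking overlapped within a group. By mean CPM over the 4 libraries, Eda2r stood 24th and Eda 294th among the 1091 X-linked entries.

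**Figure D1:**
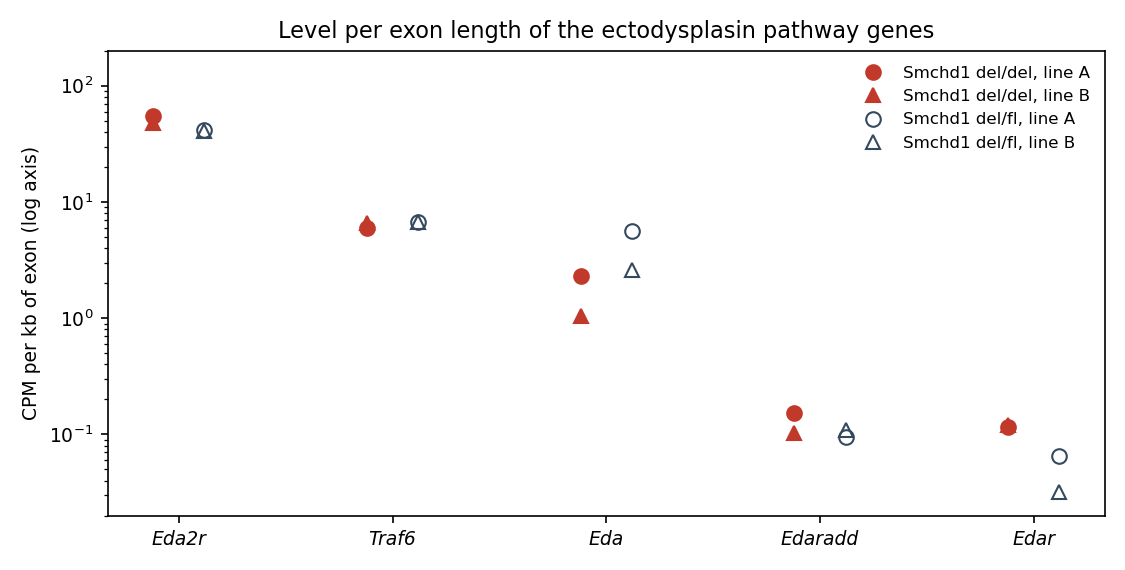
CPM per kb of annotated exon (log axis) for the 5 genes, with Smchd1 del/del libraries in filled red and Smchd1 del/fl libraries in open grey, circles for line A and triangles for line B. Eda2r lies between 40.9 and 55.1 CPM per kb, and Edaradd and Edar lie under 0.16.

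The ligand gene Eda (chromosome X, 99975606 to 100400762, mm10, plus strand) had 525 and 226 counts in Smchd1 del/del cells of lines A and B, against 1134 and 607 in Smchd1 del/fl cells. These are 15.7 and 7.06 CPM against 38.2 and 17.8 CPM. The groups did not overlap. The share of all genes without overlap was not counted, so nothing is read from this, here or for the genes below. Each Smchd1 del/del library stood at a like fraction of the Smchd1 del/fl library of its own line, 0.411 in line A and 0.397 in line B. The log2 fold change was −1.30 (SE 0.56), and −1.31 (SE 0.11) with line as a block. Without the block the value depended on which library was left out. It was −1.99 without Smchd1 del/del line A and −1.75 without Smchd1 del/fl line B, but −0.85 without Smchd1 del/del line B and −0.65 without Smchd1 del/fl line A. The annotation places 3 processed pseudogenes and Mir676 within the Eda gene on its strand, and the sources used here do not say whether counting separated them.

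The receptor gene Eda2r (chromosome X, 97333840 to 97377216, mm10, minus strand) had 10863 and 9090 counts in Smchd1 del/del cells of lines A and B, against 7233 and 8204 in Smchd1 del/fl cells. On the CPM scale these are 324 and 284 against 244 and 241. The groups did not overlap, but the difference was small, 1.33-fold in line A and 1.18-fold in line B, with a log2 fold change of 0.33 (SE 0.11).

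**Figure D2:**
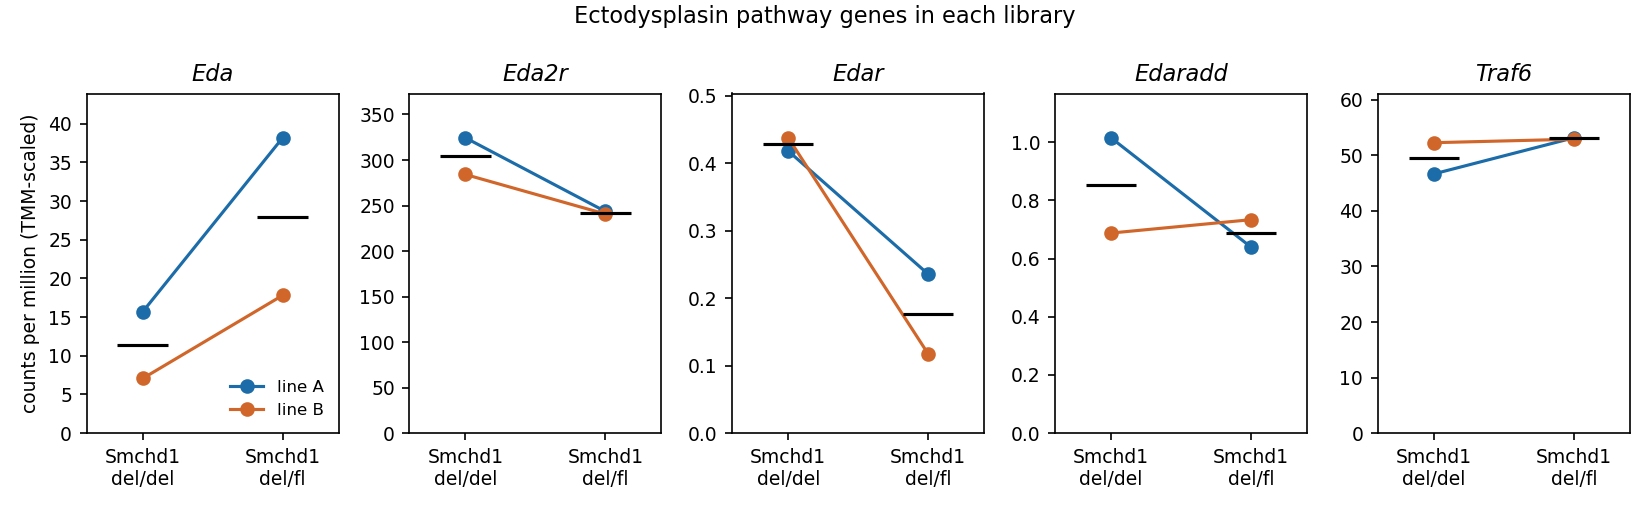
CPM of the 5 genes, on a linear axis of its own for each gene, in Smchd1 del/del and Smchd1 del/fl libraries. Lines join the libraries of cell line A or B, and short bars are group means. Eda is lower and Eda2r higher in the Smchd1 del/del library of both lines, and Eda is lower in line B than in line A within each group.

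The receptor Edar (chromosome 10, 58600789 to 58675654) had 14 and 14 counts in Smchd1 del/del cells and 7 and 4 in Smchd1 del/fl cells. At 0.418 and 0.438 CPM against 0.236 and 0.117 CPM the groups did not overlap. The gene passed the filter on low counts through its Smchd1 del/del libraries alone, and its log2 fold change of 1.28 had an SE of 0.55. Edaradd (chromosome 13, 12471209 to 12520450), the death-domain adaptor of Edar, had 34 and 22 counts in Smchd1 del/del cells and 19 and 25 in Smchd1 del/fl cells. Its groups overlapped, with a log2 fold change of 0.31 (SE 0.40) that was −0.001 without Smchd1 del/del line A.

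Traf6 (chromosome 2, 101678429 to 101701669) differed least. It had 1562 and 1672 counts in Smchd1 del/del cells of the 2 lines, against 1579 and 1803 in Smchd1 del/fl cells, or 46.7 and 52.3 CPM against 53.1 and 52.9 CPM. The groups did not overlap, but the gap was narrow, with a log2 fold change of −0.10 (SE 0.10) that was −0.19 within line A and −0.02 within line B.

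Without a term for line edgeR called 0 of 14860 genes at an adjusted p under 0.05, hence 0% and 0 of the 5 members, with 1019 genes higher and 718 lower before adjustment at 0.05. DESeq2 called 263 higher and 115 lower in that design. With line as a block edgeR called Eda alone among the 5 members, where 5.6% of all genes were called, 3.71% higher and 1.89% lower. Since these differences led to the choice of the genes, nothing is read from the counts.

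The difference between the 2 cell lines was not the contrast on which the genes were chosen, and it was tested. The choice used the same libraries, with earlier results of these data known, so the p values of this test are not independent of it. The 2 libraries of a line are taken as parts of 1 line, so these p values do not measure the spread among further lines. Eda was lower in line B than in line A in both genotypes, by a log2 of −1.12 (SE 0.11, edgeR's quasi-likelihood adjusted p = 0.0127 with genotype as a term). Its Smchd1 del/del and Smchd1 del/fl libraries had 7.06 and 17.8 CPM in line B, against 15.7 and 38.2 CPM in line A. By this test 10.1% of all genes differed between the lines, 3.51% higher and 6.63% lower in line B. Cell type markers also differed between the lines in this test. Of the 4 oligodendrocyte lineage markers, Pdgfra and Sox10 were higher in line B, each by a log2 of 2.37 (edgeR adjusted p = 0.00308 and 0.0122). Olig1 (−0.18) and Mbp (0.11) did not pass. The list sums, most of each from Olig1, were 1682 and 1632 CPM in line B against 1762 and 1877 CPM in line A. Of the 4 astrocyte markers, Aldh1l1 (−1.22, edgeR adjusted p = 0.00767) and S100b (−1.83, edgeR adjusted p = 0.0273) were lower in line B. Gfap (0.04) and Aqp4 (0.14) did not pass. The sums were 140 and 78.3 CPM in line B against 272 and 130 CPM in line A, with Aldh1l1 the largest part of each. Of the 4 neuron markers 2 were higher and 1 lower in line B, with sums of 14 and 12 CPM against 10 and 8.01 CPM, and no marker of these 3 lists was at 0 in every library. Their part in the lower Eda level of line B was not tested. Over the alternatives the adjusted p for Eda ran from 4.69e-06 with DESeq2 to 0.525 in edgeR without the genotype term. The other members did not pass edgeR's threshold. Eda2r differed by a log2 of −0.10 (SE 0.08, adjusted p = 0.418), Edar by −0.28 (SE 0.51, 0.75), Edaradd by −0.20 (SE 0.36, 0.744) and Traf6 by 0.08 (SE 0.08, 0.556).

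The genes whose profiles over the 4 libraries were nearest to that of Eda, by root mean square difference of centred log2 CPM, were Syt1, a synaptotagmin, Glipr2 and Gmpr, at distances of 0.105, 0.121 and 0.13. Syt1 had 2056 and 829 counts in Smchd1 del/del cells and 5063 and 2453 in Smchd1 del/fl cells. Those nearest to Eda2r were 1600012F09Rik, Gypc and Lyrm1, at 0.004, 0.008 and 0.011, and Gypc, a membrane glycophorin, had 344 and 291 counts against 228 and 261. With 4 libraries, many genes have like profiles.

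Within 2 Mb of Eda2r or Eda, 38 other X-linked genes were tested, and with line as a block 3 rose and 0 fell, where 3.71% of all genes rose and 1.89% fell. At this number of genes, and with an overlapping pair among the 3, nothing is read from the count. Its share was not tested against that of all genes or of X-linked genes. The neighbours had a median log2 fold change of −0.02 against 0.01 over all genes. The 3 are named after their values were seen. Heph, a copper-dependent ferroxidase, had 134 and 40 counts in Smchd1 del/del cells and 29 and 14 in Smchd1 del/fl cells (edgeR adjusted p = 0.0407 for a log2 of 1.86, SE 0.29, higher in both lines). Nlgn3, a synaptic adhesion protein, had 74.8 and 100.3 CPM in Smchd1 del/del cells and 43.2 and 69.4 CPM in Smchd1 del/fl cells (adjusted p = 0.0335 for 0.66, SE 0.09, by edgeR). The entry RP23-440J15.7 overlaps Nlgn3 and could share its reads. Without the block edgeR called none of the 38.

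**Figure D3:**
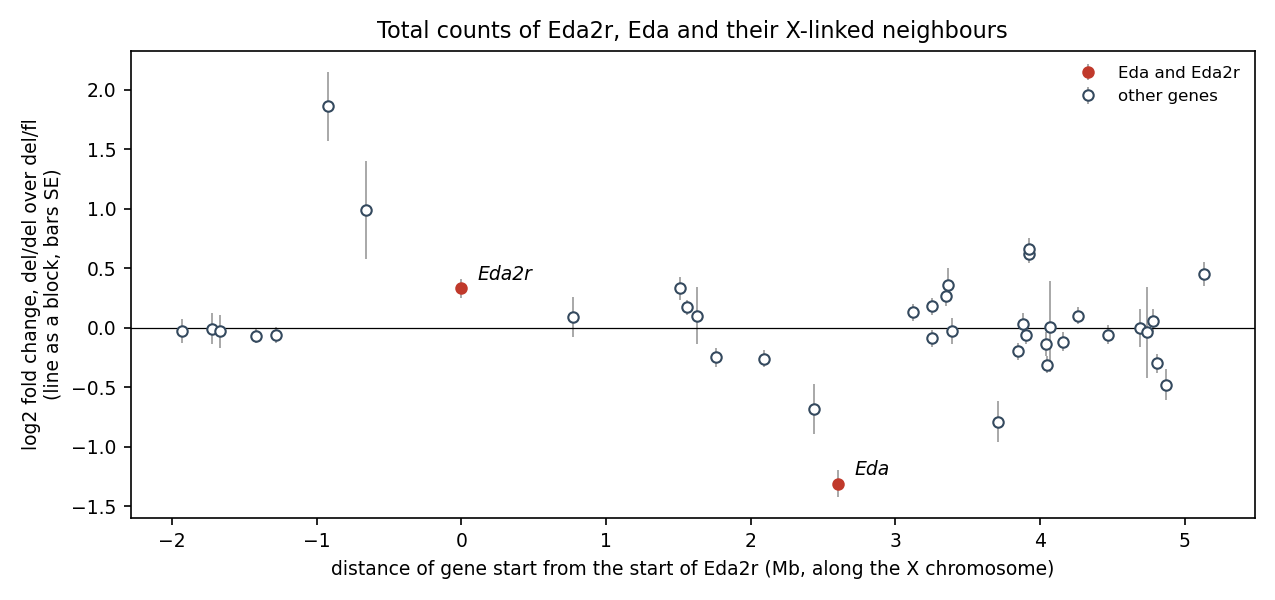
Log2 fold change of total counts, Smchd1 del/del over Smchd1 del/fl, from the edgeR fit with line as a block, for Eda2r, Eda (filled red) and the tested genes within 2 Mb of either (open), by distance of the gene start from that of Eda2r (Mb). Bars are SE. Eda lies at −1.31 and Eda2r at 0.33, and the neighbours range from −0.79 to 1.86 with a median of −0.02.

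Of 18 listed TNF receptor relatives and TRAF adaptors 16 were tested, and with line as a block 3 rose and 0 fell, where 3.71% of all genes rose and 1.89% fell. The median log2 fold change was 0.02. Tnfrsf19, known as Troy and a close relative of Edar and Eda2r, had 129 and 127 CPM in Smchd1 del/del cells and 83.8 and 82.7 CPM in Smchd1 del/fl cells (edgeR adjusted p = 0.0227 for a log2 of 0.62, SE 0.06). Its libraries lay close together within each group and far from the other group. Tnfrsf21, a death-domain receptor, had 558 and 310 CPM in Smchd1 del/del cells and 253 and 190 CPM in Smchd1 del/fl cells (adjusted p = 0.0322 for 0.92, SE 0.12, by edgeR). Ngfr, the p75 neurotrophin receptor, had 168 and 64 counts against 19 and 12 (adjusted p = 0.0227 for 2.77, SE 0.29, by edgeR). Without the block edgeR called none of the 16, with 3 higher and 0 lower before adjustment. The astrocyte markers moved in the same direction, and their part was not tested.

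The shared signalling module is described by counts. Of 18 NF-kB module genes, all tested, edgeR called 0 with line as a block, where 5.6% of all genes were called. At 18 genes, 0 calls is near that share, so nothing is read from it. Before adjustment 2 were higher and 0 lower, against 2553 and 2019 of all 14860 genes. The 2 were Cyld (log2 0.34, SE 0.08) and Tab1 (0.25, SE 0.08), named after their values were seen. Without the block edgeR called 0, with 1 higher and 0 lower before adjustment, against 1019 and 718 of all genes. The median log2 fold change was −0.01 in both fits. Map3k7, the kinase TAK1 that acts below Traf6, had 5306 and 5680 counts in Smchd1 del/del cells and 4673 and 5721 in Smchd1 del/fl cells (log2 0.05, SE 0.07). Its partner Tab2 had 140 and 141 CPM against 155 and 143 CPM (−0.09, SE 0.07). In both genes the difference was smaller than or close to its SE. Ikbkg, the X-linked scaffold NEMO whose human form is linked to an ectodermal dysplasia, was named for its position and had 74.9 and 74.9 CPM in Smchd1 del/del cells and 75.8 and 88.8 CPM in Smchd1 del/fl cells (−0.13).

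**Figure D4:**
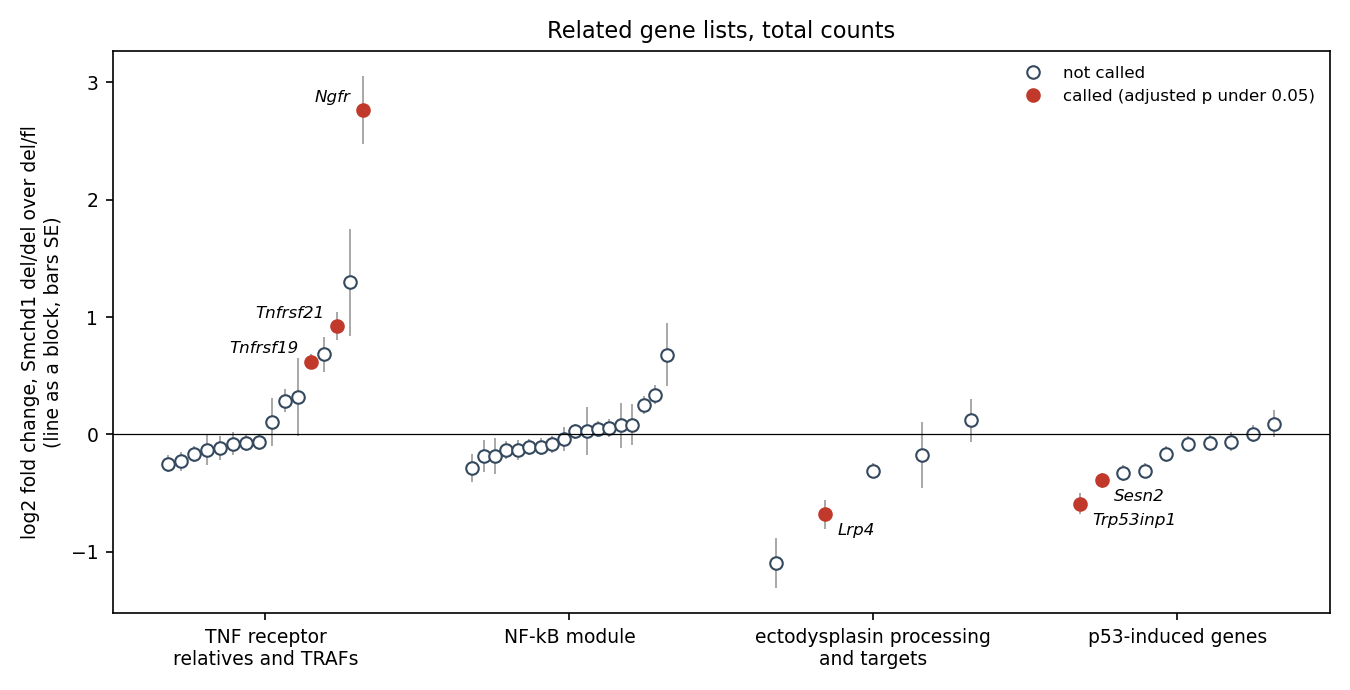
Log2 fold change of total counts, Smchd1 del/del over Smchd1 del/fl, for the tested genes of 4 related lists, from the edgeR fit with line as a block. Bars are SE and filled red points passed an adjusted p of 0.05. Ngfr, Tnfrsf21 and Tnfrsf19 lie above 0, Lrp4, Sesn2 and Trp53inp1 below, and no NF-kB module gene passed.

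Targets that the pathway is known for in skin were mostly silent. Of 13 genes for ectodysplasin processing and appendage targets 5 passed the filter on low counts, and Dkk1, Dkk4 and Foxi3 had 0 counts in every library. With line as a block 1 fell and 0 rose, where 3.71% of all genes rose and 1.89% fell. The median log2 fold change was −0.31 over the 5, against 0.01 over all genes. The gene that fell was Lrp4, a co-receptor that modulates Wnt signalling. It had 41.3 and 61.9 CPM in Smchd1 del/del cells and 77.3 and 85.6 CPM in Smchd1 del/fl cells (edgeR adjusted p = 0.0484 for a log2 of −0.68, SE 0.12, lower in both lines). The remaining tested genes did not pass. Fst had a log2 of 0.12 (edgeR adjusted p = 0.69) and Sostdc1 of −0.17 (0.713). Furin and Shh are given for their roles, after their values were seen. In both the groups overlapped, though each Smchd1 del/del library was below the Smchd1 del/fl library of its line. Furin, the protease that releases ectodysplasin from the cell surface, had 63 and 49.1 CPM against 77.7 and 61.1 CPM (adjusted p = 0.0639 for −0.31, SE 0.07, by edgeR). Shh had 116 and 40 counts in Smchd1 del/del cells and 240 and 81 in Smchd1 del/fl cells (adjusted p = 0.0554 for −1.09, SE 0.21, by edgeR). Without the block edgeR called 0 of the 5, with 0 higher and 1 lower before adjustment.

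Of 10 p53-induced genes, all tested, 8 had negative fold changes, with a median log2 of −0.12 against 0.01 over all genes. With line as a block 2 fell and 0 rose, where 3.71% of all genes rose and 1.89% fell. Trp53inp1 had 557 and 571 CPM in Smchd1 del/del cells and 910 and 795 CPM in Smchd1 del/fl cells (edgeR adjusted p = 0.039 for −0.59, SE 0.09). Sesn2 had 192 and 141 CPM against 248 and 188 CPM, with overlap between the groups (adjusted p = 0.0451 for −0.39, SE 0.07, by edgeR). Both were lower in the Smchd1 del/del library of each line. Cdkn1a, the p21 inhibitor and the best known target, named for that reason, had 717 and 510 CPM against 693 and 522 CPM (0.01, adjusted p = 0.962 by edgeR). Without the block edgeR called 0 of the 10, with 0 higher and 2 lower before adjustment.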

How the data were processed

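Raw counts of all aligned reads were deposited by the authors for each gene and library. The submitters' processing notes name mm10, bcl2fastq, TopHat2 2.0.12 and edgeR; the counting method and its use of strand: not given in the sources used here. Column names give a group and a number that they do not call a line, but not which labelled sample. Hence 1 column per sample was used, and 8 further columns of values, including those by parental genome, were not used here. Allelic expression is not analysed. Each number is shared by 1 column of each group. Since the labels' protocol divides established lines, columns that share a number were taken as libraries of 1 line. The labels do not state this pairing. The fits with line as a block, the values within a line and the line test rest on it. Same-line deviations from the group means correlated at 0.72 over 14860 genes, 1 value, since with 2 libraries a group the lines mirror each other. With 2 libraries a group, a p covers the spread between these cultures and no more.

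All genes of the table were fitted by edgeR 4.0.16 under R 4.3.3: quasi-likelihood test on genotype, TMM scaling, low counts removed by filterByExpr, Benjamini-Hochberg adjustment at 0.05. Results whose call changes with line as a block carry that value. CPM used TMM-scaled totals. Exon lengths came from GENCODE M21 and promoters from RefSeq, with 5 of 5 members found. Members, lists and the naming rule (members, called list genes or else the 2 most abundant, the 3 nearest profiles) were chosen with earlier results of these data known. Planned parts on allele counts were dropped. The fits were checked on simulated counts. Alternatives were DESeq2 1.42.0, RLE size factors, no filter and each library left out.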

Additional observations from a re-analysis of the deposited data

Results flagged for a closer look

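Edaradd moved in opposite directions in the 2 lines, with a log2 difference between Smchd1 del/del and Smchd1 del/fl cells of 0.667 in line A and −0.093 in line B. The lines have 1 library of each genotype, its counts were 19 to 34 per library, and the difference was not tested.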

How the results depend on the processing

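The numbers of called genes depended on the fit. With the replicate block, that is line as a term, edgeR called 551 genes higher and 281 lower, against 0 without it. DESeq2 called 263 and 115 without the block and 772 and 427 with it. Of the 59 genes in the related lists, 3 rose and 3 fell with the replicate block, 2 and 1 with DESeq2, and 4 and 3 with DESeq2 and the block. Between lines, 521 genes were higher and 985 lower in line B, but 3 and 5 without the genotype term, where Eda kept a log2 of −1.112 without passing the threshold, and 799 were higher without a filter. The cause was not tested. Leaving out each library in turn gave 0 calls on genotype; Eda2r then ran from 0.229 to 0.403, Eda from −1.987 to −0.652, Edar from 0.848 to 1.829, Traf6 from −0.204 to −0.023 and Edaradd from −0.001 to 0.541. Under the other alternatives the log2 values of the 5 members shifted by at most 0.072. Leaving out a library leaves no residual degree of freedom in the line test, so it was not run there; alternatives for allele counts were not run. Edar and Edaradd, at 4 to 34 counts, are limited by depth.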
